A study of Homo sapiens with 8 samples.

Results

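Very wide peaks of poly(A) 3′-sequencing, defined as peaks at least 400 bp wide on chromosomes 1 to 22 and X, numbered 1772. They were 1.16% of the 152887 peaks on these chromosomes, and the whole list held 153624 peaks. A peak is a stretch of the genome in which reads that start at poly(A) tails pile up, so a wide one joins read starts spread over a longer stretch. Whether each of these marks a cleavage site was not tested. The list was called on reads pooled from 8 libraries, in 4 groups of 2 biological replicates. Both Kelly WT groups came from a human neuroblastoma line with amplified MYCN, given either the solvent DMSO or THZ531, which binds CDK12 and CDK13 covalently and blocks these kinases of transcription elongation. The other groups were Kelly E9R, a line that arose from Kelly cells during long selection with another CDK12 inhibitor and carries CDK12 mutated at the cysteine that THZ531 binds, also given DMSO or THZ531. As a selected line it can differ from Kelly WT in more than this mutation. The labels give 400 nM and 6 h for THZ531, whereas the study's methods name another dose for these cells. The pooled list carries no value for a single library, so neither the drug effect nor the effect of the mutation could be compared, and all values below lack replicates. Width, a measured property of these peaks, was what the members were chosen by.

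Nearly all polyadenylated transcripts are made by cleavage of the nascent RNA followed by addition of a poly(A) tail. The cleavage machinery recognises a polyadenylation signal (PAS), most often AATAAA or its close variant ATTAAA in the DNA, and cuts the RNA a short distance downstream of it. A gene can carry several such signals in its last exon, in which case cleavage at each of them gives transcripts with 3′ UTRs of different length. The oligo(dT) primer used to make these libraries can also anneal to A-rich stretches inside a transcript, so that a read may start where no cleavage took place.

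Because reads were extended to 100 bp before calling, the 3′ end of a peak, on the strand of its gene, lies near the most downstream read start that passed the caller's threshold. The matching upstream point lies 100 bp inside the 5′ edge and is called the 5′ site below. That threshold is not given in the sources used here, and scattered reads may lie outside the limits. In wide peaks both points were a median of 352 bp apart (range 300 to 1446 bp). All sequences below are on GRCh38 and written 5′ to 3′ on the strand of the gene.

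The first set shows the signals at both of these limits in 4 wide peaks at the ends of protein-coding genes. They are the peaks with the highest −log10 q among those with a signal 10 to 35 bp before the 5′ site and before the 3′ end, and were chosen after their values were seen. Capitals mark the AATAAA or ATTAAA nearest to the point, and the GNAS window before the 3′ end holds another AATAAA in lower case. GNAS encodes the stimulatory G protein alpha subunit, MYL12B a regulatory light chain of myosin, OCIAD1 a protein of endosomes and mitochondria, and EIF4G1 the scaffold of the cap-binding translation initiation complex.
GNAS before the 5′ site, chr20:58910838-58910867, + strand: cccccaaatttaATTAAAgccttaagcaca
GNAS before the 3′ end, chr20:58911162-58911191, + strand: atcaaaataaaaATTAAAtgtgagcaaaga
MYL12B before the 5′ site, chr18:3278143-3278172, + strand: aaaaagatcgcgAATAAAaatcaacaaatg
MYL12B before the 3′ end, chr18:3278473-3278502, + strand: agtcagatgtttATTAAAtgataaatatag
OCIAD1 before the 5′ site, chr4:48861159-48861188, + strand: catcaagaaattATTAAAaagctttttttc
OCIAD1 before the 3′ end, chr4:48861517-48861546, + strand: tctttacaaaaaAATAAAaattagctggcg
EIF4G1 before the 5′ site, chr3:184335023-184335052, + strand: tgtgtctgaactAATAAAgtggctgaagag
EIF4G1 before the 3′ end, chr3:184335321-184335350, + strand: gtgcctgtaattATTAAAcatgaattcaat

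The second set shows what followed the same 2 points in 3 of the widest intronic peaks with A-rich sequence after both. Capitals mark the first A-rich stretch within 50 bp after the point, meaning at least 6 consecutive A or 10 bases of which 7 or more are A. VPS53 encodes a subunit of a tethering complex at the trans-Golgi network, CACNA1B the pore of the N-type calcium channel of neurons, and MBNL1 a splicing regulator.
VPS53 after the 5′ site, chr17:646732-646761, − strand: AGAAAAGATAagacccttaggaggcagtgg
VPS53 after the 3′ end, chr17:646145-646174, − strand: tatgAATTAGAAAAgataagacccttatca
CACNA1B after the 5′ site, chr9:138066673-138066702, + strand: AGAAAATATAaataacagaaaaacaatgaa
CACNA1B after the 3′ end, chr9:138067247-138067276, + strand: AAAGAAAACAccagattctagtggtcttat
MBNL1 after the 5′ site, chr3:152350065-152350094, + strand: agaaggaatcTAAAGACAAAccttggcgca
MBNL1 after the 3′ end, chr3:152350623-152350652, + strand: atgagaagggATTAAGAAAAagtgagttag

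The third set shows the first and last signal of 3 of the widest peaks. In MYCN, which encodes the transcription factor amplified in this line, and in HSPB1, which encodes a small heat shock protein, the peak ran far past the annotated transcript end. In ANKRD12, an ankyrin repeat protein gene, the peak lay in a coding exon.
MYCN first signal, chr2:15946972-15947001, + strand: catgtttatgaaAATAAAtagcttaaaatt
MYCN last signal, chr2:15947509-15947538, + strand: cagagtaagcagAATAAAcagatggaaatg
HSPB1 first signal, chr7:76304259-76304288, + strand: ctgtttttctcaAATAAAgttcaaagcaac
HSPB1 last signal, chr7:76304812-76304841, + strand: gtcacgattgcaATTAAAactgtaaggtgg
ANKRD12 first signal, chr18:9255124-9255153, + strand: atcaaatgccaaAATAAAggatgaagatca
ANKRD12 last signal, chr18:9256223-9256252, + strand: atagtagacggtAATAAAgcacaacatgaa

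Width alone chose the members, and it comes from the same pileup as the scores of a peak, so widths and scores are given as a description. The median width of wide peaks was 452 bp (quartiles 422 and 514 bp), and the widest spanned 1546 bp. A width of at least 500 bp was reached by 535 of them (30.2%), at least 800 bp by 37 and at least 1000 bp by 8. The pileup, which is the number of extended reads over the summit, was recovered from the deposited fold and p-value. Its median was 24 in wide peaks (quartiles 14 and 36) and 9 in the 130030 peaks under 200 bp, called narrow peaks below. The median fold enrichment of the summit over the local background was 9.40 in wide and 6.25 in narrow peaks, and the median −log10 q was 17.4 and 6.78. The local background itself was a median of 1.36 reads in wide and 0.47 in narrow peaks. Wide peaks thus had a higher pileup at the summit and a higher local background than narrow ones. The methods name no control library, so the reads of a peak may be part of its own background. How far its surroundings were more covered was not tested. Whether reads with the same start were counted once is not given in the sources used here. If they were, the pileup counts start positions rather than all reads, and it partly restates how far the starts spread. The highest pileup of all peaks on these chromosomes was 187.

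Peaks on either side of the threshold were alike in their scores. Exactly 400 bp was the width of 20 members, and 21 peaks were 1 bp narrower. Members of 400 to under 410 bp had a median pileup of 18 and a median fold of 8.37, and peaks of 390 to under 400 bp had 18 and 8.25. In the order of chromosome names, the first 3 just inside were peaks at the ends of SELENOF, with a pileup of 27, and GTF2B, with 16, and one in an exon of MEX3A, with 29. The first 3 just outside were peaks in an intron of PLPPR5, with a pileup of 17, in an exon of CAMK1D, with 46, and at an end of PARD3, with 12.

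As a check of the labelled cell type, all 12 genes listed as neuroblastoma markers had a peak of some width, and 7 of them a wide one. Among these were MYCN, HAND2, ISL1, CHGA, ELAVL4 and STMN2. Of the genes of other cell types, ALB and APOA1 of liver and PTPRC and HBB of blood had no peak, whereas all 4 mesenchymal genes had a peak and 0 of the 4 a wide one. Over all protein-coding genes 13725 had a peak, and 10.4% of these a wide one. Presence of a peak thus did not separate neuroblastoma from mesenchymal genes.

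To determine where wide peaks lie, each peak was assigned in the order of the study to an annotated transcript end site (TES, from 200 bp before to 600 bp after it), an exon, an intron or intergenic sequence. Of the 1772 wide peaks, 886 were at a TES (50%, 95% Wilson interval 47.7 to 52.3%). Exons held 356 (20.1%, 18.3 to 22.02%), introns 458 (25.8%, 23.9 to 27.9%) and intergenic sequence 72 (4.06%, 3.24 to 5.09%). The intron share was 12.7% among the 1325 wide peaks with −log10 q of at least 10, and the exon share 12.2% when all annotated transcripts were used instead of the basic set. Among narrow peaks the order was different, with 63.2% in introns, 14.2% at a TES, 12.8% in exons and 9.86% between genes. The TES share was 21.9% in peaks of 200 to under 300 bp and 43.2% in those of 300 to under 400 bp, so that it was higher in each wider class.

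**Figure D1:**
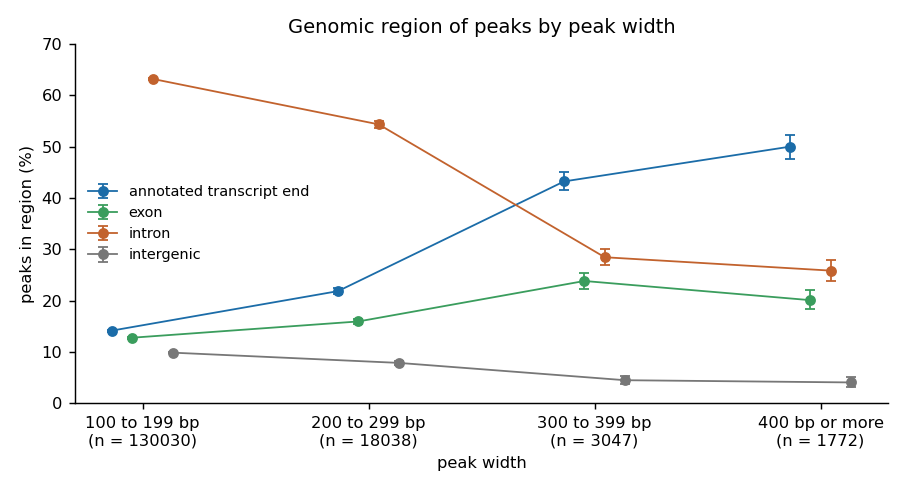
Share of peaks in each genomic region (y axis, percent of peaks) by peak width (x axis, with the number of peaks in each class). Points are shares and bars 95% Wilson intervals. The TES share was 14.2% in the narrowest class and 50% at 400 bp or more, while the intron share was 63.2% and 25.8%.

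A wider peak has more room to touch a TES window or an exon. When only the base at the summit was assigned, 41.1% of wide peaks were at a TES (38.9 to 43.4%), against 13.8% of narrow peaks. The summit lay in an exon in 25.7% and in an intron in 28.7%, against 10.4% and 65.9% in narrow peaks. Regions also go with strength, since the median pileup of wide peaks was 32 at a TES, 26 in exons, 13 between genes and 10 in introns. Among peaks with a pileup of 10 to 19, 29.6% of wide (25.6 to 34.0%) and 17.5% of narrow peaks were at a TES. With a pileup of 20 to 39, the shares were 64.8% (61.2 to 68.2%) and 47.6%. At 40 or more they were 78.0% (73.4 to 82.0%) and 68.4% (65.5 to 71.2%). At matched pileup the excess of wide peaks at a TES was thus smaller than in all peaks. Matching by pileup may not match expression level, and the part of expression level and annotation in the excess was not tested.

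Most wide peaks were assigned to protein-coding genes (1537, 86.7%), compared with 80.0% of narrow peaks. Long noncoding RNA (lncRNA) genes held 114 (6.43%, 5.38 to 7.67%) against 7.56% of narrow peaks. Pseudogenes held 25 (1.41%) against 1.99%, and small RNA or rRNA genes 20 (1.13%) against 0.392%. Wide peaks covered coding sequence in 186 of the 886 TES peaks (20.99%) and in 149 of the 356 exonic peaks (41.9%), so that many exonic wide peaks lay in untranslated or noncoding exons.

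The list has no strand, and a wide peak can join reads of genes that face each other. Genes on both strands were overlapped by 227 wide peaks (12.8%, 11.3 to 14.4%) and by 6.87% of narrow peaks, and at the summit alone by 10.3% and 6.67%. Protein-coding genes lay on both strands at 104 wide peaks (5.87%) against 1.38% of narrow peaks. The widest of these spanned chr9:137243598-137244751, 1154 bp, over the ends of FAM166A and TUBB4B, a beta-tubulin gene. Its pileup was 77, with the summit 91 bp from the edge at the end of FAM166A. The next were BPHL with TUBB2A (841 bp, pileup 52) and ELOVL1 with CDC20 (810 bp, pileup 39). In such peaks the reads of each gene cannot be told apart, and the analyses of signals below used the 1434 wide peaks whose genes lie on 1 strand. These were 668 at a TES, 332 in exons and 434 in introns.

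Signals were searched on the gene's strand, and the mirrored windows of the same peaks, read on the opposite strand, served as background. At least 1 of 12 PAS motifs stood in the 100 bp before the 3′ end of 992 of the 1434 peaks (69.2%, 66.7 to 71.5%), against 47.5% on the opposite strand. The motifs were AATAAA and its variants in the first base, CATAAA as well as GATAAA and TATAAA, in the second, ACTAAA as well as AGTAAA and ATTAAA, or in the fifth, AATACA as well as AATAGA and AATATA. The remaining ones were AAGAAA and AATGAA. Matches may overlap. AATAAA alone stood there in 31.7%, against 11.2%. By region, a motif preceded 79.5% of wide peaks at a TES, 77.1% of those in exons and 47.2% of those in introns, with 57.5%, 53.0% and 27.9% on the opposite strand. In narrow peaks the share was 87.3% at a TES (54.7% on the opposite strand), 66.3% in exons (54.2%) and 50.7% in introns (33.8%), and 57.7% over all regions (39.4%). Wide peaks thus had a motif less often than narrow ones at a TES, but more often in exons and over all regions, with 95% intervals that did not overlap, whereas those for introns did. The share over all regions also depends on the mix of regions, since 50% of wide and 14.2% of narrow peaks were at a TES. These intervals cover counting error only and are not a test between widths.

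Along the whole peak, AATAAA or ATTAAA was found at 2 or more places in 772 wide peaks (53.8%, 51.2 to 56.4%), against 33.1% on the opposite strand. The share was 66.5% at a TES (46.3% on the opposite strand), 43.7% in exons (34.3%) and 42.2% in introns (11.98%). In introns part of these signals lay in A-rich sequence after the 5′ site, which is inside the peak. From 0 to 4 bp after this site 9.45 signals started per 100 intronic peaks, and from 20 to 16 bp before it 5.30. A-rich sequence is T-rich on the opposite strand, so that strand is no matched background for intronic signals. None was found in 21.7% of wide peaks, against 40.2%. TES peaks with exactly 2, 3 and 4 signals numbered 175, 130 and 88 of 668, and 51 had 5 or more. In the 444 TES peaks with at least 2, the first and last signal were a median of 282.5 bp apart.

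Since length gives room for signals, they were also counted per 100 bp. Wide peaks held 0.400 signals per 100 bp on the gene's strand and 0.249 on the opposite strand, and narrow peaks 0.437 and 0.188. At a TES the density was 0.451 in wide (0.3198 on the opposite strand) and 0.799 in narrow peaks (0.275). Wide peaks therefore held more signals each, but fewer per base at a TES.

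At a TES the signals gathered before both points. In the 5-bp bin from 25 to 21 bp before the 3′ end, 17.2 signals started per 100 peaks, and 11.5 did so at the same distance before the 5′ site. On the opposite strand no bin within the plotted range held more than 2.54 around the 3′ end or 3.14 around the 5′ site. A signal 10 to 35 bp before the 3′ end was present in 292 of 668 TES peaks (43.7%), against 7.04% on the opposite strand. The same held before the 5′ site in 28.6% (25.3 to 32.1%), against 9.88%. In TES peaks of 300 to under 400 bp the shares were 46.6% before the 3′ end and 30.4% before the 5′ site.

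**Figure D2:**
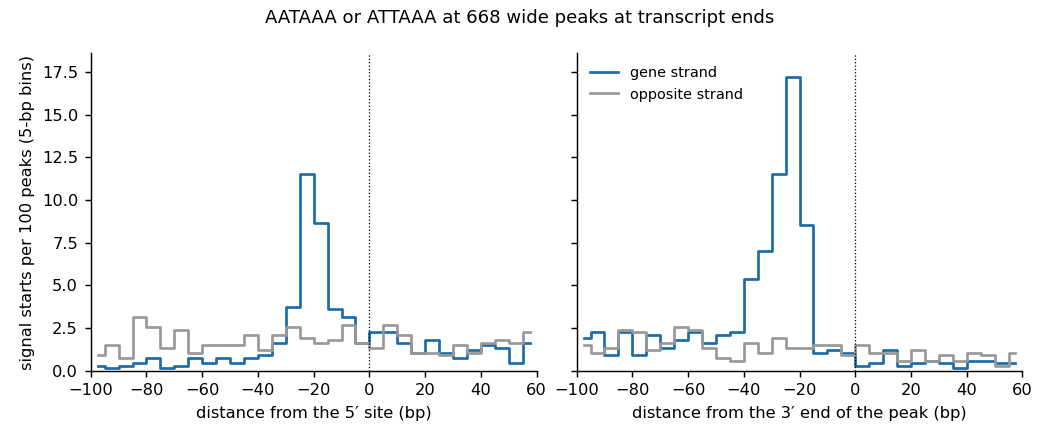
Starts of AATAAA or ATTAAA per 100 peaks in 5-bp bins (y axis) by distance from the 5′ site (left) and from the 3′ end of the peak (right), in bp, for 668 wide TES peaks. Blue is the gene's strand and grey the opposite strand. Both panels peak 25 to 21 bp upstream of the point, at 11.5 (left) and 17.2 (right).

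Signals at both limits of the same peak were found in 128 of the 1434 wide peaks (8.93%, 7.56 to 10.5%) and in 7 on the opposite strand (0.488%). TES peaks had 84 (12.6%, 10.3 to 15.3%) against 4, exonic peaks 29 (8.73%) against 2, and intronic peaks 15 (3.46%) against 1. Most wide peaks therefore had no canonical signal at the usual distance from at least 1 of their limits. Examples outside the printed sequences were CCNB1, the mitotic cyclin B1, with a peak of 655 bp, 3 signals and a pileup of 52, and TRIOBP, an actin-binding protein gene, with a peak of 536 bp, 3 signals and a pileup of 42. Signals at both limits were not particular to this width. At a TES they were found in 16.2% of peaks of 300 to under 400 bp and 21.3% of those of 200 to under 300 bp. In exons these shares were 8.53% and 8.26%, and in introns 6.85% and 4.50%.

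The 4 printed pairs differed in which signal lay nearer the summit. In GNAS (chr20:58910771-58911192, 422 bp) the summit preceded the 3′ end by 97 bp, with a pileup of 81 and 10 signals in the peak, against 1 on the opposite strand. In MYL12B (chr18:3278073-3278502, 430 bp) it was 106 bp from the 5′ edge, with a pileup of 62. In OCIAD1 (458 bp, pileup 62) and EIF4G1 (405 bp, pileup 63) it was 91 and 94 bp from the 5′ edge. The highest pileup thus lay near the downstream limit in GNAS and near the upstream limit in the other 3.

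Annotated transcript ends were then set beside the peaks. At least 1 annotated end of the assigned gene lay inside 708 of the 886 wide TES peaks (79.9%, 77.1 to 82.4%). Ends at least 10 bp apart numbered 2 or more in 246 of them (27.8%, 24.9 to 30.8%), or 13.9% of all wide peaks, compared with 8.93% of peaks of 300 to under 400 bp. Of the 668 TES peaks with genes on 1 strand, 277 had an annotated end within 25 bp of the 3′ end (41.5%) and 90 within 25 bp of the 5′ site (13.5%). Both limits were annotated in 23 (3.44%), and neither in 324 (48.5%). GNAS held 5 annotated ends, PABPC1, a poly(A)-binding protein, 5, and KANSL1, a subunit of a histone acetyltransferase complex, 3.

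Many of these peaks continued downstream of the annotation. In the 543 TES peaks with an annotated end inside, the 3′ end lay a median of 100 bp past the last one (quartiles 7 and 225.5 bp). It was within 25 bp in 191 (35.2%), more than 100 bp past in 271 (49.9%) and more than 300 bp past in 82 (15.1%). The summit was a median of 80 bp before the last annotated end. The summit thus often lay shortly before an annotated end, with additional width downstream of it. Extension places each read over the 100 bp upstream of its start, so part of this distance comes from that setting.

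The most extended case was MYCN (chr2:15946559-15948104, 1546 bp), the widest peak of all. Its pileup was 96 over a local background of 17.7, which gave a fold of 5.18. The summit lay 85 bp from the 5′ edge and 363 bp before the annotated end at position 15947007, and the peak ran 1097 bp past this end. The copy number of the amplified locus and its part in the background were not tested. HSPB1 (chr7:76304188-76305371, 1184 bp) had a pileup of 38 over a background of 2.18. Its summit was 21 bp before the annotated end at 76304295, the signal AATAAA printed above stood 17 bp before the 5′ site, and the peak went on for 1076 bp. In both genes the last canonical signal lay more than 500 bp upstream of where the peak ended.

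**Figure D3:**
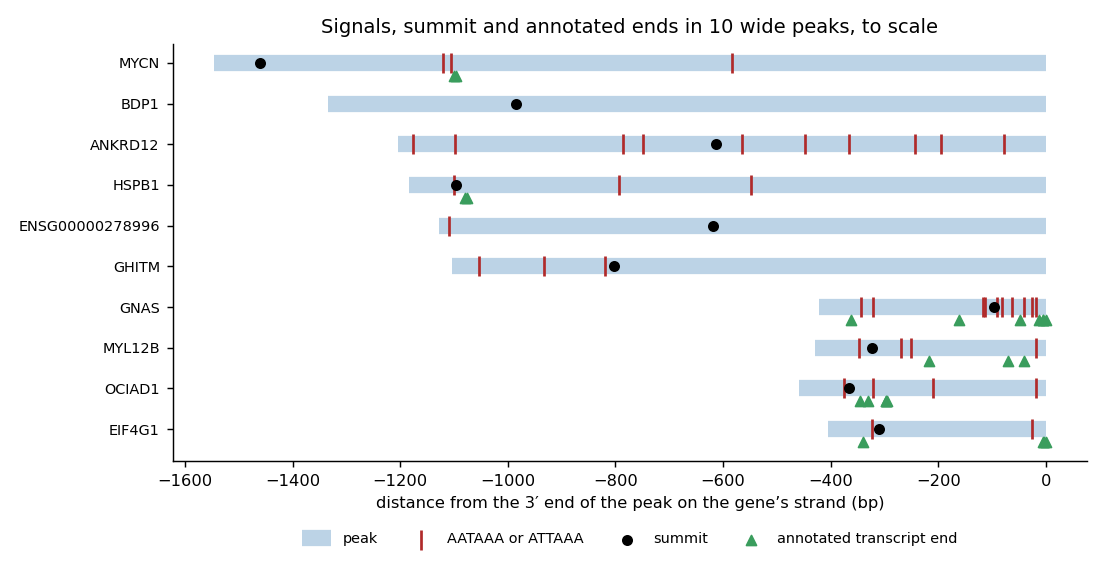
Maps of 10 wide peaks to scale, drawn on the strand of the gene with the 3′ end at 0 (x axis in bp). Bars are peaks, red ticks AATAAA or ATTAAA, black dots summits and green triangles annotated transcript ends. The 6 upper peaks are the widest with genes on 1 strand and the 4 lower ones have a signal before both the 5′ site and the 3′ end; in MYCN and HSPB1 the annotated ends lie near −1097 and −1076 bp.

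Other very wide peaks lay in exons outside the TES windows. BDP1, a subunit of the RNA polymerase III factor TFIIIB, had a peak of 1334 bp over coding sequence (chr5:71509614-71510947) with a pileup of 25, no canonical signal and A-rich sequence after its 3′ end. ANKRD12 had one of 1204 bp over coding sequence (chr18:9255109-9256312), with a pileup of 33 and 10 signals against 0 on the opposite strand. None of these signals lay 10 to 35 bp before either limit. GHITM, a mitochondrial membrane protein gene, had one of 1103 bp (chr10:84152239-84153341) with a pileup of 48 and 3 signals on each strand. The widest in an intron was in the lncRNA gene PVT1 (chr8:127897332-127898296, 965 bp, pileup 34), and the widest between genes spanned chr22:49972828-49973801 (974 bp, pileup 19). A-rich sequence also followed the 3′ end of the peaks in ANKRD12, GHITM and PVT1.

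Among the 5 wide peaks with the most signals in the widest 200, CUL4A, a cullin of ubiquitin ligases, had 6 signals (4 on the opposite strand) and a signal before both limits (754 bp, pileup 40). Its 3′ end was 4 bp past the annotated end. KLHL8, a ubiquitin ligase adaptor, had 6 signals in 963 bp, with as many on the opposite strand, and ETNK1, an ethanolamine kinase, 6 in 613 bp (3). CACNA1B had 6 in an intron (1). Only in ANKRD12 and CACNA1B, of these 5, did the gene's strand hold at least 6 times as many signals as the other. In both, A-rich sequence followed the 3′ end, so the opposite strand may be no matched background for them.

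Intronic wide peaks were followed by A-rich sequence more often than those at a TES. After the 3′ end it was present in 341 of 434 intronic peaks (78.6%), against 15.2% on the opposite strand. The share was 41.3% in exons (29.5%) and 21.3% at a TES, below the 29.0% of the opposite strand. In narrow peaks it was 79.5% in introns, 55.1% in exons and 25.5% at a TES, and in intronic peaks of 300 to under 400 bp it was 68.9%. Over all regions it was 43.2% in wide and 69.0% in narrow peaks, which differ in their mix of regions.

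In introns, A-rich sequence was about as frequent after the upstream limit. It followed the 5′ site in 339 of the 434 intronic peaks (78.1%), against 16.1% on the opposite strand, and both points in 295 (68.0%, 63.4 to 72.2%), against 14 (3.23%). AATAAA or ATTAAA was absent from 32.7% of intronic wide peaks, 30.4% of intronic peaks of 300 to under 400 bp and 71.4% of narrow ones, which have less room. Whether the limit of an intronic peak is a cleavage site was not tested and cannot be read from its position alone. A-rich sequence followed both points in 9.58% of TES peaks (14.8% on the opposite strand) and in 27.1% of exonic peaks (12.7%). The base A made up 72.5% of the first 5 bases after the 5′ site of intronic peaks and 64.6% of those after the 3′ end, against 24.6% and 26.5% on the opposite strand. The stretch of 25 A with at most 3 mismatches, by which the study removed peaks that lack a motif, followed 29 intronic wide peaks (6.68%) and 0 of 434 on the opposite strand. With its condition on the motif, that rule would remove 38 wide peaks (2.14%).

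**Figure D4:**
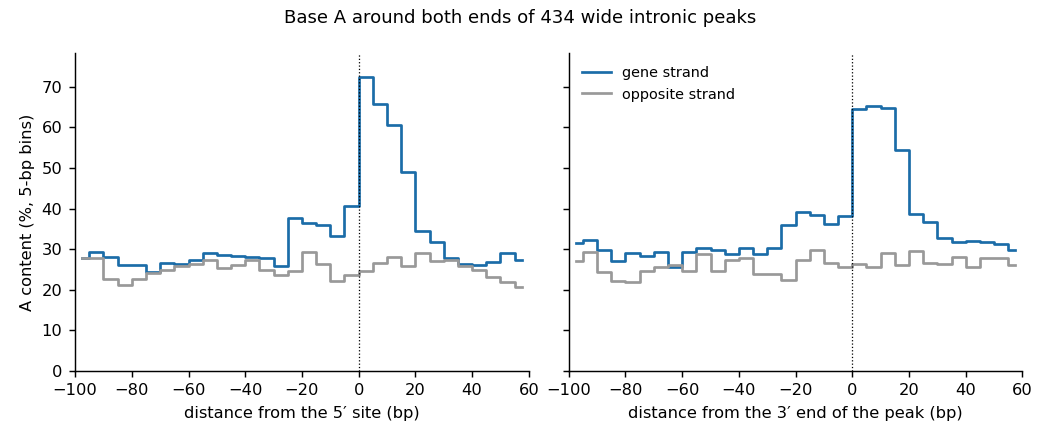
Share of base A (y axis, percent, 5-bp bins) by distance in bp from the 5′ site (left) and from the 3′ end (right) of 434 wide intronic peaks. Blue is the gene's strand and grey the opposite strand. A content steps up to 72.5% and 64.6% directly after each point, while the opposite strand holds 24.6% and 26.5% there.

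The 3 printed intronic peaks were weak to moderate in height. VPS53 (chr17:646175-646861, 687 bp) had a pileup of 9 and 0 canonical signals, and MBNL1 (chr3:152349960-152350622, 663 bp) a pileup of 14 and 0 signals. CACNA1B (chr9:138066573-138067246, 674 bp) had a pileup of 16 and 6 signals, with its summit 70 bp from the 5′ edge. In this last peak a canonical signal before the 3′ end and A-rich sequence after it stood together.

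The summit marks where most extended reads of a peak overlap, or most start positions if each start was counted once. It lay closer to the 3′ end than to the 5′ edge in 707 of 1434 wide peaks (49.3%, 46.7 to 51.9%), and its median distance was 231.5 bp from the 5′ edge and 236 bp from the 3′ end. The first 110 bp held 420 summits (29.3%), the last 110 bp 407 (28.4%) and the stretch between them 607 (42.3%), although this stretch takes a median of 51.2% of the width. Summits were therefore about as frequent near the 5′ edge as near the 3′ end.

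In introns the positions fell into 3 groups. The first 110 bp held 145 summits, the last 110 bp 144, and the rest 145 of the 434. Between 40 and 60% of the width lay 24.9% of intronic summits (21.05 to 29.2%), but only 3.92% between 25 and 40% and 3.46% between 60 and 75%. At a TES these shares were 23.5%, 11.98% and 9.73%, and in exons 20.8%, 11.4% and 10.5%, so that the gaps between the groups were deeper in introns. The middle range is wider than the ranges beside it. How far the extension of reads to 100 bp and the joining of nearby read starts by the caller set these groups was not tested. After intronic summits of the middle stretch (n = 145), A content was highest 55 to 59 bp downstream, at 52.4%, against 28.4% on the opposite strand. A-rich sequence was thus raised inside these peaks as well as at their limits. The distance of this maximum from the summit also depends on the extension of reads to 100 bp.

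**Figure D5:**
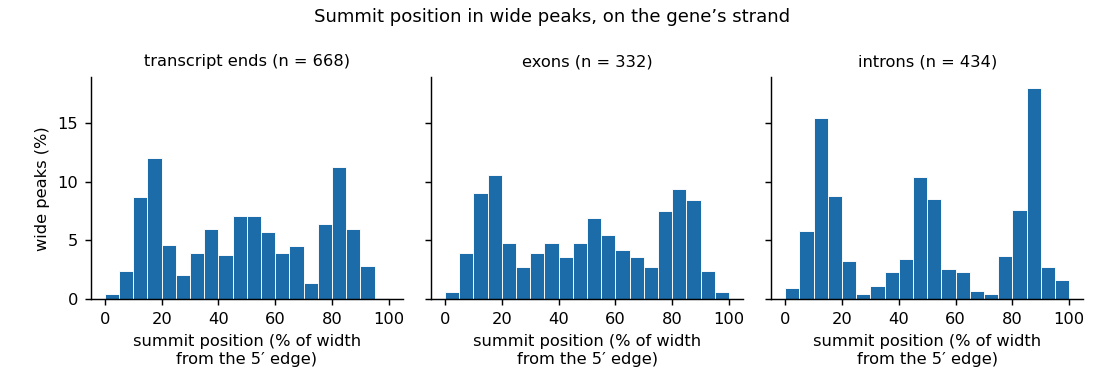
Position of the summit in wide peaks as a percent of the width from the 5′ edge (x axis), in 5% bins, on the gene's strand; y axis, percent of the wide peaks in that region. Introns show 3 separate groups, near either edge and in the middle, and the same 3 maxima are shallower at transcript ends and in exons.

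At a TES the position of the summit went with the position of signals. Where it lay in the first 110 bp (n = 184), a signal stood before the 5′ site in 43.5% (36.5 to 50.7%) and before the 3′ end in 41.8%. Where it lay in the last 110 bp (n = 173), the shares were 25.4% (19.5 to 32.4%) and 52.6% (45.2 to 59.9%). Where it lay between (n = 311), they were 21.5% and 39.9%. Signals at both limits were found in 20.7%, 15.0% and 6.43% of these peaks.

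Wide peaks were assigned to 1586 genes, of which 1483 had a single one, 93 had 2 and 10 had 3 or more. Peaks of 1 gene are not independent of each other. KANSL1 had 4, with 1 at its end (pileup 48, 3 annotated ends) and 3 in introns (pileups 10 to 15). GNAS had 3, and both of its intronic ones (pileups 43 and 51) held more canonical signals than the opposite strand, 3 and 6 against 1 each. DDX46, an RNA helicase of splicing, had 3, in an intron (pileup 13), a coding exon (10) and at its end (35, 867 bp). MSI2, an RNA-binding protein of neural progenitors, had 3 with pileups of 9, 14 and 15 and none at its end. ENSG00000278996 and ENSG00000280441 on chromosome 21, with 3 each, lie among repeated ribosomal RNA gene copies, where reads that map to several places make the position uncertain.

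The 5 wide peaks with the highest −log10 q were all at a TES. Among them were those of ESRRA, an estrogen-related nuclear receptor (421 bp, −log10 q 97.2), DLK1, a Notch-like membrane protein of neuroendocrine cells (575 bp, 92.7), RNU2-1, a U2 snRNA gene (593 bp, 92.0), and GNAS (89.0). ESRRA overlapped TRMT112, a gene on the other strand. DLK1 reached a pileup of 100 with 0 canonical signals inside the peak. RNU2-1 belongs to a family of near-identical copies, so its reads may come from any of them.

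Gene lists were read against all protein-coding genes, of which 1429 of 13725 with a peak had a wide one (10.4%). Of the 22 cleavage and polyadenylation factors, 4 had a wide peak. CPSF6, a subunit of cleavage factor I, had one at its end (674 bp, pileup 23) with 3 signals, and PABPC1 one of 626 bp (pileup 78). CPSF2, of the complex that recognises the signal, had one in a coding exon (469 bp, pileup 21), and PAPOLG, a poly(A) polymerase, one in an intron (558 bp, pileup 15). CDK12, CDK13 and CCNK, the kinases bound by THZ531 and their cyclin, all had peaks but no wide peak assigned to them, although one assigned to another gene overlapped CCNK.

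Neuronal RNA-binding protein genes had a wide peak in 7 of 17 and adrenergic neuroblastoma transcription factor genes in 6 of 15. The 9 wide peaks of the first list lay mostly outside annotated ends, with 4 in exons, 3 in introns and 2 at a TES. In ELAVL3, a stabiliser of neuronal mRNAs, a peak of 475 bp (pileup 52) had a signal before both limits, and so had one in an intron of PTBP2, a splicing repressor (467 bp, pileup 12). In ELAVL4 a peak of 416 bp (pileup 34) held 3 signals and 3 annotated ends. Of the transcription factors, ISL1 (435 bp, pileup 50, 4 signals) ended 19 bp past its annotated end. GATA2 (451 bp, pileup 59) ended 170 bp past it. HAND2 (443 bp, pileup 70) and TFAP2B (674 bp, pileup 36) had theirs in exons.

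Genes of abundant messenger RNAs were examined next. Tubulin and actin genes had one in 7 of 8 with a peak of their own, and translation factors in 5 of 14. With overlap by wide peaks of other genes counted, these were 9 of 10 and 6 of 15. ACTG1, cytoplasmic gamma-actin, had one of 823 bp (pileup 79) with 3 annotated ends, TUBA1A, an alpha-tubulin of neurons, one of 528 bp (pileup 51) with 4, and ACTB one of 643 bp (pileup 39) that covered coding sequence. EEF2, elongation factor 2, had one of 553 bp (pileup 53). Tubulin and actin genes have close relatives and pseudogenes, so that some of their reads may be shared.

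Ribosomal protein genes had a wide peak in 15 of 77 (19.5%). Wide peaks assigned to other genes overlapped RPL31, RPL36, RPS21 and RPS27A, and with overlap counted the number was 19 of 82. Their 16 wide peaks were 14 at a TES, 1 in an exon and 1 in an intron, and 11 covered coding sequence, which is short in these genes. RPS12 had the widest (762 bp, pileup 61, 2 signals). RPL26L1 held 4 signals against 0 on the opposite strand (430 bp, pileup 47), and RPL23 none (413 bp, pileup 26). These genes too have many processed pseudogenes. Replication-dependent histone genes, whose transcripts normally end in a stem-loop without a poly(A) tail, had a wide peak in 2 of 40, H4C3 (568 bp, pileup 46) and H3C1 (564 bp, pileup 19). Of 13 abundant lncRNA genes, NEAT1 had one assigned to it (488 bp, pileup 52), which held 5 annotated ends and ended 19 bp past the last. Wide peaks assigned to other genes overlapped MALAT1 and SNHG14. The share of 10.4% given above covers protein-coding genes and assigned peaks only. How far these shares follow transcript abundance was not tested.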

How the data were processed

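Per the labels, RNA of Kelly and Kelly E9R cells was made into libraries with the QuantSeq 3′ REV kit, whose reads start at the poly(A) junction. According to the methods, the authors trimmed reads with BBDuk, mapped them with STAR 2.5.1b to GRCh38 with ERCC sequences (up to 20 places per read), merged all samples and called peaks with MACS2 2.1.1, with reads extended to 100 bp. The q threshold and the handling of duplicate reads are not given in the sources used here. The deposited list gives peak limits, a score, a fold enrichment (ratio of pileup to background), −log10 p, −log10 q and the summit, as the authors made them. Columns with a value for 1 sample numbered 0, and a strand was given for 0 peaks, so the depth per library is unknown and no test between groups was run.

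The pileup was recovered as the whole number that satisfies both the fold and the p-value of MACS2's formulas, which succeeded for 100% of peaks within 0.01 of the −log10 p. The recovery was tested on simulated data. Peaks were annotated with GENCODE release 44 (basic transcripts, at least 1 bp overlap, protein-coding genes first, then longer transcripts) using bedtools 2.31.1 and Python 3.11.15, and Wilson intervals came from SciPy 1.17.1. Intervals cover counting error only, since there is 1 pooled list without replicates and peaks of 1 gene are not independent. The reads carry no molecular identifiers.

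The members and the gene lists were chosen with earlier results of these data known. Named genes were the 10 widest peaks, the 5 of the widest 200 with most canonical signals, the 5 genes with most wide peaks, the 5 highest −log10 q, the widest of each region and gene type, list members, the 3 peaks on either side of the threshold and the widest over convergent genes. Genes with a signal at both limits were added after their values were seen. Alternatives were other widths, −log10 q of at least 10, all transcripts, a narrower TES window, other motif, signal and A-rich definitions and assignment by the summit. Some genes that these rules name are not reported here.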

Additional observations from a re-analysis of the deposited data

Results flagged for a closer look

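Outside the chromosomes described above, and used in no comparison, 29 further peaks of at least 400 bp were in the list. Of these, 13 lay on ERCC spike-in sequences (the widest 1050 bp), 12 on unplaced or unlocalised contigs (929 bp) and 4 on the mitochondrial genome, whose widest reached 1743 bp and was wider than the peak of MYCN. They were singled out because they lie in data outside the main measurement.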

How the results depend on the processing

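Limits: 1 pooled list without strand, depth per library or replicates, so widths follow depth and the peak caller's settings. No paired analysis was possible because the list has no value per sample, and leaving out replicates could not be run for the same reason. The number of wide peaks (1772) was 1325 with −log10 q of at least 10 and 1734 without peaks that have the 25-A stretch and no motif. Of the other alternatives, 42 moved a value, as follows, and the rest left shares within the interval of the reported one. The TES share (50%) was 45.7% at 300 bp or more, 62.6% with −log10 q of at least 10, 62.0% with all transcripts, 45.4% with a window of 50 bp either side, 46.6% with genes on 1 strand only and 41.1% by the summit. The exon share became 22.5%, 22.04%, 12.2% and 23.2% in the first 4 of these and 25.7% by the summit. The intron share became 12.7% with the stricter q, 22.1% with all transcripts and 28.7% by the summit, and the intergenic share 2.72% with the stricter q. A motif before the 3′ end was found in 74.6% at 300 bp, 76.7% with the stricter q and 82.1% at protein-coding TES. It was 43.9% for AATAAA and ATTAAA alone, 46.6% before the summit and 41.4% before the 5′ edge. The share with 2 or more signals was 48.5%, 57.6% and 70.02% in the first 3 of these, and 33.9% for AATAAA alone. Signals at both limits were found in 13.7% at protein-coding TES, 4.04% for AATAAA alone and 12.1% with 5 to 45 bp. The summit was nearer the 3′ end in 52.5% at 300 bp, and in the last 150 bp in 31.0%. A-rich sequence followed 31.3% with the stricter q, 20.4% at protein-coding TES, 2.44% by the stretch of 25 A and 52.7% after the summit. Genes on both strands were 5.87% for protein-coding genes and 10.3% by the summit. The share with 2 or more annotated ends was 24.9% with all transcripts, 11.0% with ends 50 bp apart and 10.7% at 300 bp. Wide peaks numbered 4819 at 300 bp and 192 at 600 bp, and list members with one 82 at 300 bp. The genes on 1 strand and the summit were chosen as alternatives after seeing the data.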

Other observations

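Base composition of wide peaks differed between regions. The median GC content was 36.2% in wide and 40.8% in narrow peaks. At a TES it was 34.3% in wide and 36.5% in narrow peaks, whereas in introns it was 43.6% and 42.6%. Another peak lay within 1000 bp of 44.8% of wide peaks (42.5 to 47.1%) and of 29.5% of narrow ones, and the median gap to the nearest peak was 1263 and 2195 bp.

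By chromosome, wide peaks made up between 0.878% of all peaks, on chromosome 20, and 1.90%, on chromosome 21. On chromosome 21, 9 wide peaks lay between positions 8202971 and 8449334, in the region of repeated ribosomal RNA genes named above. The widest pseudogene peak was at MTND1P23 (chr1:629090-630013, 924 bp), a nuclear copy of a mitochondrial gene, with the highest pileup of any wide peak, 187, over a local background of 34.96.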
